A study of Drosophila melanogaster with 2 samples.

Results

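Peaks of a p53-eGFP fusion protein were examined at 10 Drosophila genes of epidermal growth factor receptor (EGFR) signalling. They were the rhomboid proteases rho (rhomboid), ru (roughoid) and stet, the trafficking factor S (Star), the ligands spi (spitz), Krn (Keren), grk (gurken) and vn (vein), the secreted inhibitor aos (argos), and the receptor Egfr itself. The genes were chosen by name with peak values in view, since ru holds one of the strongest peaks of the data and rho has a peak at its transcription start site (TSS). Their values are therefore given as a description, with no test. All 10 matched the Ensembl annotation by symbol, out of 13945 protein-coding genes on the chromosome arms. A region of a peak list was assigned to a gene when its summit lay in the gene body or within 5 kb of either end.

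The assay was chromatin immunoprecipitation sequencing (ChIP-seq) with an anti-GFP antibody, on the strain p53-MiMIC-GFP, in which an eGFP exon placed in an intron tags the endogenous p53 gene. Another label field gives p53 itself as the antibody target. There was 1 group, made of whole embryos of both sexes at 0 to 24 h, in 2 biological replicates numbered 2 and 3. No second group was analysed here, and whole embryos do not show which cells held the protein. The final peak list, selected by the irreproducible discovery rate (IDR) and called the IDR list here, held 2290 peaks. The pooled list held 26752 regions, of which 3355 had a q of 0.01 or less, and each replicate's own list held 30000.

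In flies, spi, Krn and grk are made as membrane-bound precursors. S carries such precursors out of the endoplasmic reticulum, and rhomboid proteases cut them within the membrane so that the ligand can be secreted. vn is a neuregulin-like ligand that is secreted without this step, and aos binds spi outside the cell and keeps it from Egfr. Signalling from Egfr through Ras and MAP kinase patterns many embryonic tissues and restrains the cell death gene hid, and aos is among the genes it is known to induce.

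The sequences below are the dm6 genome at the peaks on which the results turn, each 201 bases centred on the summit and read 5′ to 3′ on the strand of the named gene. The ru sequence is shown because it is the strongest peak of the set, and the rho sequence because it is the only one with a full p53 site within 100 bp of the summit. Each half-site was read as 3 purines, C, A or T at both of the next places, G and 3 pyrimidines. Half-sites that adjoin or are 1 bp apart count as a full site when no more than 3 of their 20 positions mismatch. Capitals in these sequences mark the best match to a full site, whether or not it reached that limit.
ru, 3L:1366829-1367029, plus strand: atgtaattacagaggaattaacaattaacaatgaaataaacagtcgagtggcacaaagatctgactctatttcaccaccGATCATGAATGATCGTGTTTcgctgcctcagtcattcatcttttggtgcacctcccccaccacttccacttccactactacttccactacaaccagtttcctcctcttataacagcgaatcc
rho, 3L:1463697-1463897, plus strand: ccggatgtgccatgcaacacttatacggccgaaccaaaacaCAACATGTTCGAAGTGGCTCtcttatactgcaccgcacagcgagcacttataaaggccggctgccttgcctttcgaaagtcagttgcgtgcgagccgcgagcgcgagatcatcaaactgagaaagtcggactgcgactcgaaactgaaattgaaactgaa

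The rho match lies at 3L:1463738-1463757, with its middle 49 bp upstream of the summit, 1 mismatch in its first half-site and 2 in its second. The best match in the printed ru sequence has 5 mismatches, and the best in the whole ru peak has 4. Both fall short of the limit. The next sequences, the promoter peak of S and the intronic peak of aos, are shown for the factor words they hold, which are in capitals. Those words were TATCGATA for DREF, GGTCACAC for M1BP, GAGAG for the GAGA factor, CAGGTAG for Zelda, TATAAA for the TATA box and CACGTG for the E-box, each searched on both strands.
S, 2L:1077766-1077966, minus strand: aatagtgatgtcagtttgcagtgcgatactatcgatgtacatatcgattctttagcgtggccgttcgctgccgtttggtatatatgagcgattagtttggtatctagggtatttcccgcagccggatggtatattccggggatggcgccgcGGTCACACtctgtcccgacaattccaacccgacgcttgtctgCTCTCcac
aos, 3L:16480431-16480631, minus strand: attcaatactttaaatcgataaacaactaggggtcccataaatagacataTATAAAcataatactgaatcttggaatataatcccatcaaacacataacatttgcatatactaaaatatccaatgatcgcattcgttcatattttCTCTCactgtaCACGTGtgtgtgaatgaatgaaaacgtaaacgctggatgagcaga

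An IDR summit lay within the window of 8 of the 10 genes, and the 8 windows held 14 IDR peaks, none of them shared between members. Over all 13945 protein-coding genes the share with an IDR summit in such a window was 33.8%. Longer windows hold more summits, and that share was 29.8% for windows under 15 kb, 45.1% for 15 to 40 kb and 49.6% for over 40 kb. In those classes the members with a summit were 1 of 2, 5 of 6 and 2 of 2. ru and rho were listed for their peaks, so nothing is read from the count of members. A stricter reading asks that the gene's own TSS be the nearest to at least 1 of its IDR summits, ties included. That held for 6 members, rho, ru, S, spi, Krn and aos, and for 12.4% of all protein-coding genes. This share was not split by window length, and ru and rho are again among the members counted. Nothing is therefore read from this count either.

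**Figure D1:**
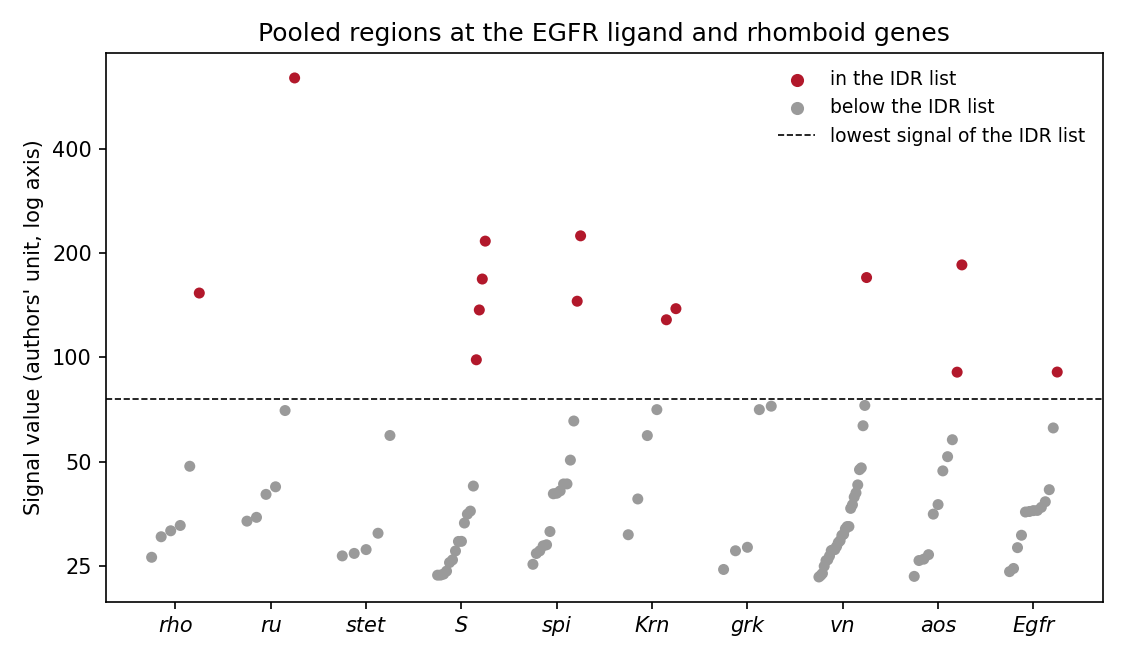
Signal value, in the authors' unit on a log axis, of every pooled region with its summit in the gene body or within 5 kb, for the 10 genes. Each point is 1 region, red points belong to the IDR list and grey ones do not, and the dashed line is the lowest signal value of that list, 75.8. The ru region at 640 stands above all others, and stet and grk have no point above the line.

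Signal values are the authors' own peak strengths and were used only to rank and describe regions within a list. The deposited q-value did not separate the peaks further, since 2047 of the 2290 IDR peaks, all 14 at the members among them, had the smallest q of the list, 0.000244. Within the IDR list the 14 peaks ranked from 21 to 1638, with a median rank of 567. Read depth at each peak is unknown.

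Among the rhomboid proteases, which cut the ligand precursors, ru held the strongest peak. The ru gene (FBgn0003295) spans 3L:1370628-1387437 on the plus strand, and its peak at 3L:1366779-1367076 reached a signal value of 640, which was rank 21 of the IDR list. It ranked 21 of 30000 in replicate 2 (signal value 250) and 18 of 30000 in replicate 3 (385). The summit, whose sequence is printed above, lay 3699 bp upstream of the ru TSS and within 4 bp of the summit in both replicates. No TSS of another gene was nearer, the next being that of a tRNA gene at 13005 bp. Of the 4720 genes with an IDR summit in their window, ru ranked 48 by its strongest peak, so that 1.04% of them had a peak as strong or stronger. Because ru was listed for this peak, a high rank was set by the choice, and nothing is read from it. A weaker pooled region lay 2257 bp upstream of the TSS, with a signal value of 70.2 and rank 2643, below the lowest IDR signal.

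The rho gene (FBgn0004635, 3L:1463811-1468944, plus strand) encodes the protease whose expression usually limits where spi is released. It had a single IDR peak at 3L:1463599-1463994, with a signal value of 153 and rank 534, and the summit lay 14 bp upstream of its TSS. The replicates ranked this peak differently, at 1648 in replicate 2 (signal value 36.9) and 304 in replicate 3 (117). It had a q of 0.01 or less in both. In the printed sequence a TATA word begins 25 bp upstream of the TSS, and a GAGA word 56 bp upstream. Pooled regions further upstream, in the 5 kb before rho where its neuroectodermal enhancer is known, were weak, with signal values from 30.4 to 32.7 and ranks from 12289 to 14640.

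stet, the protease best known from germline cells of flies, had no IDR summit in its window (FBgn0020248, 3L:1475438-1489547, minus strand). Its strongest pooled region lay 582 bp upstream of its inner TSS, with a signal value of 59.5 and rank 3566. That region had a q of 0.01 or less in replicate 3 (rank 4143) but not in replicate 2 (rank 9033). The IDR summit nearest to stet was that of rho, 11641 bp from the gene.

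**Figure D2:**
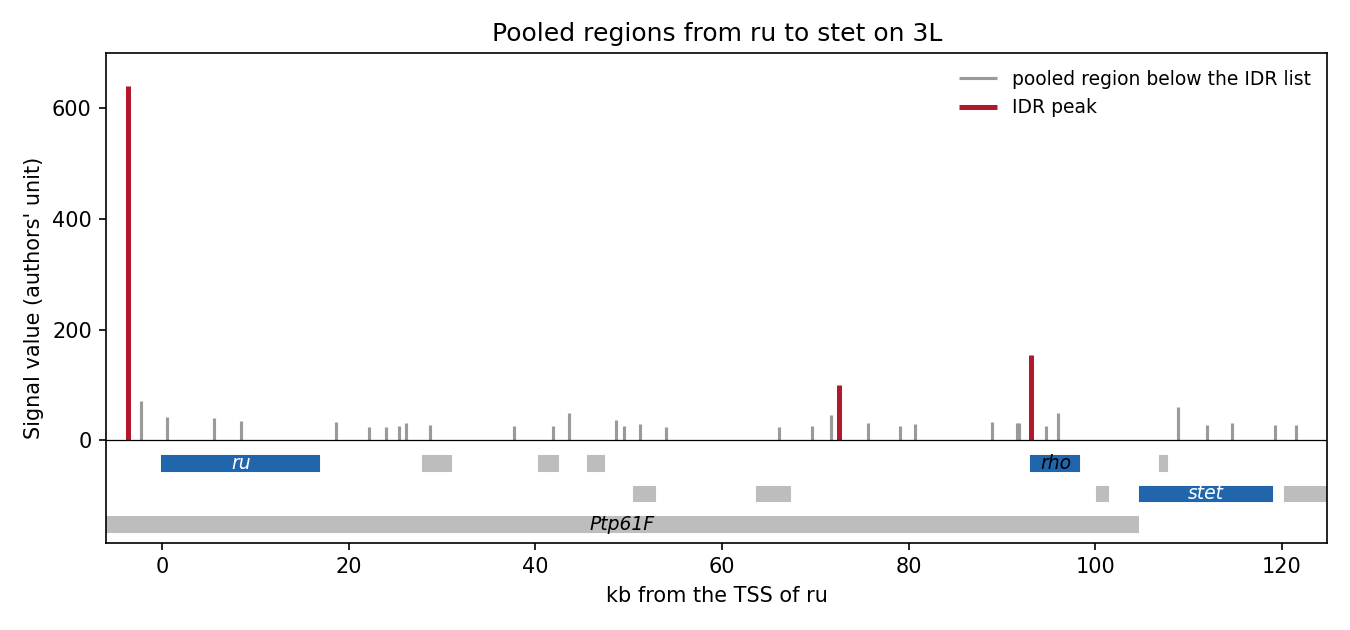
Pooled regions from ru to stet on chromosome arm 3L, as distance from the ru TSS in kb against signal value in the authors' unit. Red lines are the 3 IDR peaks, grey lines the other pooled regions, blue bars ru, rho and stet, and grey bars other protein-coding genes, with plus-strand genes in the upper row, minus-strand genes in the middle row and the minus-strand gene Ptp61F below. The ru peak at 640 is the highest, and rho at 153 has the next.

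The 3 protease genes lie close together, and ru and rho are both inside Ptp61F, a protein tyrosine phosphatase gene on the minus strand that spans 3L:1342493-1475257. The ru and rho summits are thus also in introns of Ptp61F, and a signal in the list cannot be assigned to a target gene by position alone. From 5 kb before ru to 5 kb after stet, 128920 bp, the pooled list held 36 regions, of which 3 were IDR peaks. The third was at 3L:1442958-1443353, in an intron of Ptp61F, with a signal value of 100.3 and its nearest TSS, that of SA2, 5284 bp away.

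S, which escorts the precursors to the compartment where rhomboids act, had the most IDR peaks of the set, 4 in a window of 38142 bp. Among all protein-coding genes 0.588% had at least 4, and among those with windows of 15 to 40 kb 1.21%. The gene (FBgn0003310) spans 2L:1049674-1077815 on the minus strand, and 3 of its peaks were in introns near its 5′ end. The strongest, at 2L:1072180-1072575, lay 5433 bp downstream of the nearest annotated TSS of S with a signal value of 216 and rank 232. The others lay 1858 bp downstream (2L:1075755-1076150, signal value 168, rank 434) and 3123 bp downstream (2L:1074490-1074885, signal value 137, rank 694). These 3 ranked between 360 and 816 in replicate 2 and between 202 and 683 in replicate 3. All had a q of 0.01 or less in both.

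The fourth peak of S was at its promoter, at 2L:1077668-1078063, with a signal value of 98.4 and rank 1391. Its summit was 51 bp upstream of the S TSS and 82 bp from the TSS of ast (asteroid), so this peak is shared with a neighbour. In replicate 2 it ranked 2300, just outside the 2290 strongest regions, and missed a q of 0.01, whereas in replicate 3 it ranked 1192. Its M1BP word, GGTCACAC, begins on the outer annotated start of S and 4 bp before the inner one. The 3 intronic summits held none of the 6 words. They lay 1995, 3260 and 5570 bp from the ast TSS, little farther than from that of S. Position alone therefore does not assign them to S rather than ast.

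**Figure D3:**
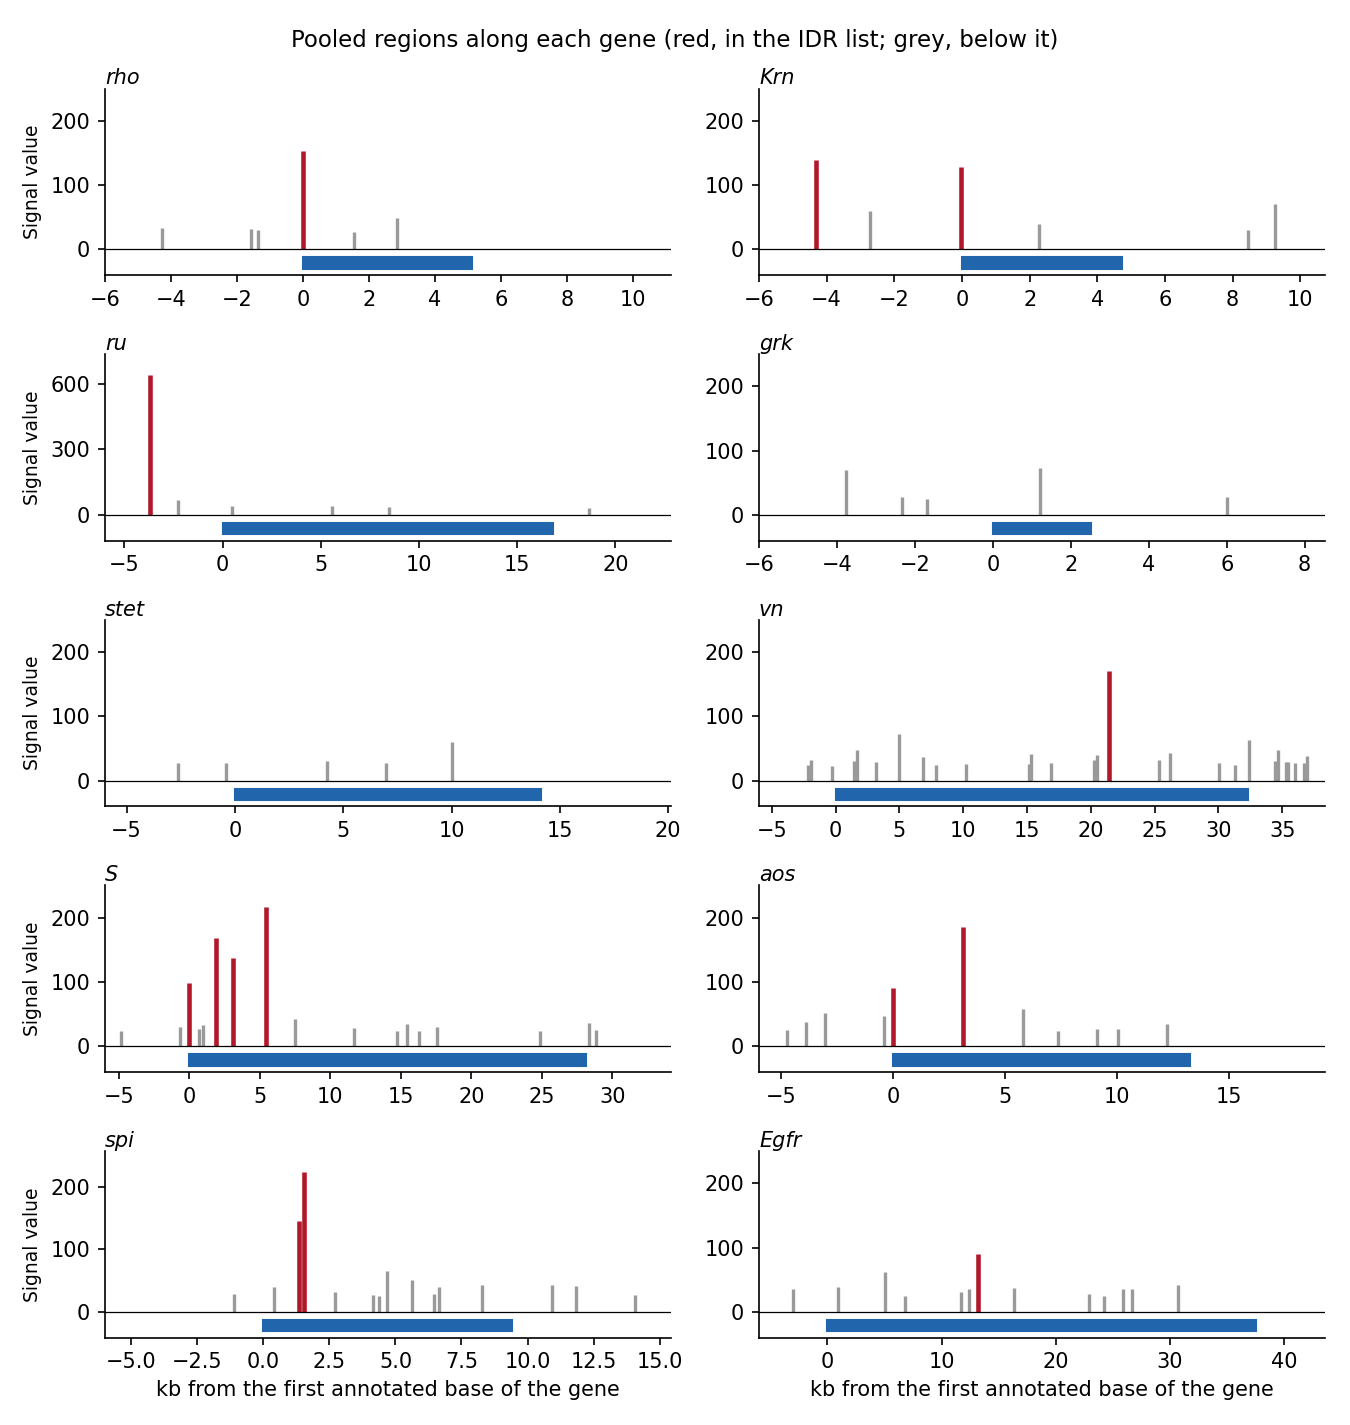
Signal value in the authors' unit of pooled regions along each of the 10 genes, against distance in kb from the first annotated base of the gene in its own direction. Blue bars are gene bodies, red lines regions of the IDR list and grey lines regions below it, and each panel has its own axes. The 4 IDR peaks of S gather around its 5′ end, the peak of vn lies 21423 bp into the gene, and stet and grk have grey lines only.

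Among the ligands, spi, the main EGFR ligand of the embryo, had 2 IDR peaks beside an inner TSS (FBgn0005672, 2L:19567900-19577315, minus strand). The narrow peak at 2L:19575692-19575792 had a signal value of 224 and rank 214, with its summit 185 bp upstream of that TSS. The broader peak at 2L:19575775-19576170 had a signal value of 145 and rank 600, 386 bp upstream. These peaks overlap by 18 bp. The narrow peak ranked 187 in replicate 2 and 269 in replicate 3. For the broad peak the region with the nearest summit ranked 464 in replicate 3 but 16212 in replicate 2, where its signal value was 15.2. Replicate 2 thus gave 1 strong region where replicate 3 gave 2. A further IDR peak, nearest to Hakai, lay 5021 bp from the spi gene, just outside the window.

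Krn, a ligand close to spi in its sequence, had 2 IDR peaks (FBgn0052179, 3L:17649562-17654280, minus strand). The peak at 3L:17654121-17654516 had a signal value of 128 and rank 791 and its summit 39 bp upstream of the TSS. Krn shares that TSS with Ndfip, in which it lies, so the peak belongs equally to both. It ranked 893 in replicate 2 and 924 in replicate 3. The other, at 3L:17658383-17658778, had a signal value of 138 and rank 677, lay 4301 bp upstream of the TSS, and was nearer to the TSS of CG7484 (3964 bp). Its rank was 377 in replicate 2 and 1370 in replicate 3. Of all member peaks, this was the one nearest inside the 5 kb edge.

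vn had 1 IDR peak in a large gene (FBgn0003984, 3L:5813338-5845664, minus strand). It was at 3L:5824043-5824438, inside an intron and 21423 bp downstream of the vn TSS, with a signal value of 170 and rank 421. The nearest TSS, that of mad2, was 11148 bp away. The peak ranked 967 in replicate 2 and 265 in replicate 3. vn also held the pooled region of the members closest below the IDR list, an intronic region 4953 bp from the TSS with a signal value of 72.6 and rank 2497.

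grk, the ligand made in the oocyte, had no IDR summit (FBgn0001137, 2L:8431086-8433598, minus strand), and the nearest lay 27481 bp away. Of its 5 pooled regions, 2 had a q of 0.01 or less, with signal values of 72.3 (rank 2522, in a coding exon) and 70.6 (rank 2616, 3772 bp upstream of the TSS). The second ranked 1787 in replicate 3 and 12123 in replicate 2, so that grk counted as having a region when replicate 3 was used alone.

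aos, which keeps spi from the receptor and is itself induced by EGFR signalling, had 2 IDR peaks (FBgn0004569, 3L:16470386-16483650, minus strand). The stronger, at 3L:16480475-16480608, was in an intron 3119 bp downstream of the TSS, with a signal value of 185 and rank 351. It ranked 257 in replicate 2 and 418 in replicate 3. Its sequence, printed above, holds a GAGA word, a TATA word and an E-box word. The weaker, at 3L:16483453-16483848, had a signal value of 90.6 and rank 1638, and its summit lay 1 bp from the TSS. It ranked 2954 in replicate 2, without a q of 0.01, and 761 in replicate 3. aos lies inside CG33158, a gene on the other strand.

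Egfr, the only receptor of this family in flies, spans 2R:21522420-21559977 on the plus strand (FBgn0003731). Its IDR peak at 2R:21535432-21535827 had a signal value of 90.7 and rank 1633, and was intronic, 11013 bp upstream of the inner TSS and 1165 bp from the TSS of CG30286, a gene within Egfr. It ranked 1155 in replicate 2 and 2937 in replicate 3. Among the 2290 strongest regions of replicate 3 alone there was none in the Egfr window.

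**Figure D4:**
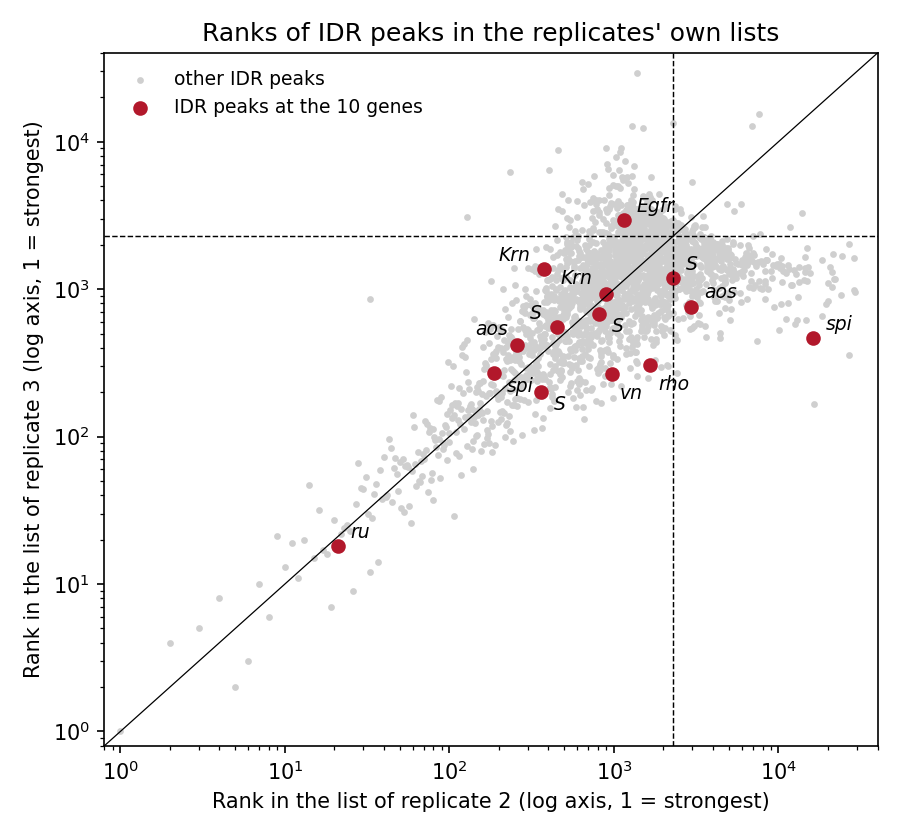
Rank of each IDR peak in replicate 2's list against its rank in replicate 3's list, on log axes with 1 as the strongest, for the 14 peaks at the 10 genes (red, with gene names) and all other IDR peaks found in both lists (grey). The rank is that of the overlapping region with the nearest summit, the line marks equal ranks, and the dashed lines mark rank 2290. ru lies at 21 and 18, and the broad spi peak lies far to the right, at 16212 in replicate 2.

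Across the set, 11 of the 14 peaks overlapped the 2290 strongest regions of both replicates, beside 69.6% of all IDR peaks. The exceptions were the promoter peaks of S and aos, which were weaker in replicate 2, and the Egfr peak, weaker in replicate 3. Any overlap counted, so the broad spi peak was included through the replicate 2 region of rank 187, which matched the narrow peak. By the overlapping region with the nearest summit, all 14 had a q of 0.01 or less in replicate 3. In replicate 2 the broad spi peak and the promoter peaks of S and aos did not. The replicates' lists differ in depth of calls, with 1847 and 4186 regions at that q over the whole list, and both were made against the same control. The windows of the members held 92 regions in replicate 2, of which 11 had such a q. Replicate 3 had 124 with 24 past that q, and the pooled list 112 with 22. In the pool such a region lay in the window of 9 members, all but stet, and of 43.5% of all protein-coding genes. The weakest member peaks in the IDR list had signal values of 90.6 (aos, rank 1638) and 90.7 (Egfr, rank 1633). The lowest signal of the whole list was 75.8. The strongest member regions below the list had 72.6 (vn) and 72.3 (grk).

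By position, 6 of the 14 summits lay within 500 bp of the TSS of their own gene, at rho, S, spi (both), Krn and aos. The share of all IDR peaks within 500 bp of a protein-coding TSS was 60.9%. Since rho was listed for its peak near the TSS, and the spi peaks overlap each other, nothing is read from this count. Of the other 8, 6 were in an intron of the member, 3 of them in S, and the ru peak and the upstream Krn peak were outside the gene. In ru, S, Krn and aos the strongest peak lay away from the promoter, between 3119 and 5433 bp from the TSS. The only IDR peaks of vn and Egfr lay farther away, at 21423 and 11013 bp. In rho and spi the strongest peak lay at the promoter.

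By sequence, the full p53 site at rho was 1 of 14, beside 7.21% of all IDR peaks and 5.79% of the 24040 pooled regions that overlap none. None of the 14 held a half-site without mismatch, which 4.54% of all IDR peaks held. At most 4 mismatches were found at 4 summits, beside 32.2% of all IDR peaks. Besides rho these were a pair of S summits and the broad spi peak, whose matches were as follows, in capitals throughout.
S, 2L:1072325-1072345, minus strand, spacer of 1 bp: AACATACCCCTAGCCTAGCCC
S, 2L:1075954-1075973, minus strand: AAGCGAGATTTGGTTAGTCT
spi, 2L:19575906-19575925, minus strand: AAGCATCTTTTAAAAAGTAT

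Of the other words, that of the GAGA factor was at 5 of the 14 summits, beside 25.5% of all IDR peaks and 6010 of the 24040 pooled regions that overlap none. The TATA word was at 4, beside 23.2% and 16.6%. M1BP and the E-box had 1 each, at S and aos, beside 4.72% and 3.45% of all IDR peaks. The DREF word, held by 6.51% of all IDR peaks, was at none, and neither was that of Zelda (1.09%). The GC content of the 201 bases had a median of 40.5% over the 14 (31.3 to 52.7) and 39.8% over all IDR peaks, while it was 45.3% in the pooled regions outside them. With 14 peaks these counts describe the set, and a word found is not a bound site.

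The same windows were read for 28 other genes of the pathway, in 4 lists drawn up by function. Of these, 17 held an IDR summit, beside the 33.8% of all protein-coding genes, and 9 had their own TSS nearest to at least 1 summit, beside 12.4%. Their windows were longer than usual, with a median of 16872 bp against 12166 bp for all protein-coding genes and 23688 bp for the 10 members. The lists and their members are described by these counts alone.

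Of the other rhomboid genes, rho-4, rho-5 and rho-6 had no IDR summit. rho-7, which encodes the mitochondrial rhomboid, had 1 (signal value 127), but it lay 167 bp from the TSS of RnrS, a ribonucleotide reductase gene.

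In the Ras and MAP kinase cascade 9 of 14 genes had a summit, and 5 had one nearest to their own TSS. Inside the gene bodies alone, 2 of the 14 had a summit, beside 7.48% of all protein-coding genes. Shc, an adaptor gene, had a promoter peak 100 bp upstream of its TSS with a signal value of 546 and rank 30, the strongest of the cascade. Raf, the kinase below Ras, had 9 IDR summits in its window, a number that 3 protein-coding genes reached, and 7 of these were nearest to its own TSS. The strongest, at X:2297592-2297826, had a signal value of 428 and rank 57. Gap1, a Ras GTPase activating protein listed as RasGAP1 in the annotation, had a peak 662 bp upstream (340, rank 92). csw, a phosphatase gene, had one 12 bp from its TSS (101, rank 1303), and Ras85D had one 107 bp from its TSS beside a stronger one at Kdm3 (147). At drk, dos, ksr and cnk, which encode an adaptor, an adaptor, a scaffold and a scaffold, the strongest peak was nearest to another gene, at mars, RpL8, Hcs and l(2)k01209. Sos, Dsor1, rl, PTP-ER and Src42A had none.

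**Figure D5:**
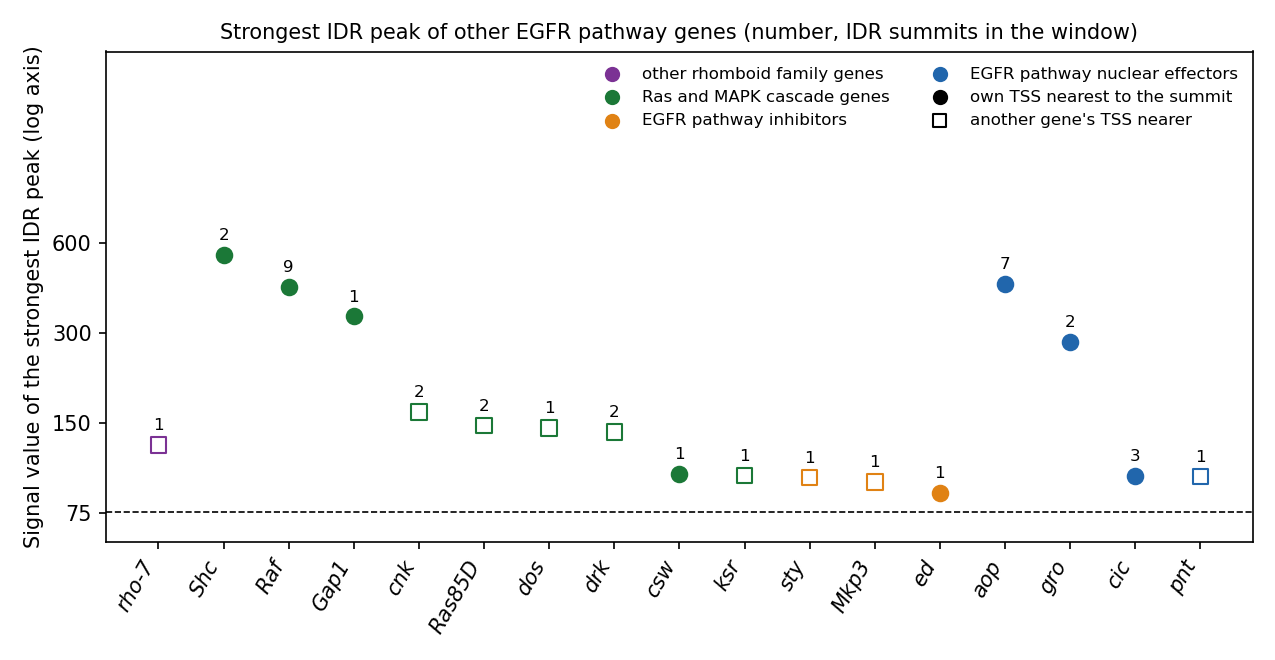
Signal value, in the authors' unit on a log axis, of the strongest IDR peak in the window of each of the 17 other EGFR pathway genes that had one. Colours give the list, filled circles mark summits with the gene's own TSS nearest, open squares those with another gene's TSS nearer, numbers count IDR summits in the window, and the dashed line is the lowest IDR signal, 75.8. Shc at 546, aop at 438, Raf at 428 and Gap1 at 340 are the highest.

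Of the inhibitors, sty (sprouty), ed (echinoid) and Mkp3 had 1 IDR summit each, with signal values of 98.8, 87.8 and 95.5. That of ed alone was nearest to its own TSS, 735 bp upstream, and kek1 and Cbl had none. No inhibitor of this list, which does not include aos, had a summit inside its gene body or among the 1145 strongest IDR peaks. Of all protein-coding genes, 7.48% had a summit in the gene body and 19.8% had one of those 1145 in the window. Nothing is therefore read from the absence in so short a list. Of the nuclear effectors 4 of 5 had a summit, and 2 had one among those 1145, beside the same 19.8%. The windows of this list had a median of 32271 bp, against 12166 bp for all protein-coding genes. Nothing is read from the difference between the lists. aop, which encodes the ETS repressor Yan, had 7, a number that 9 protein-coding genes reached or passed, and the strongest lay 11 bp upstream of a TSS (438, rank 54). gro (groucho, a corepressor gene) had 2, the stronger 109 bp upstream (279, rank 141), and cic (capicua, a repressor gene) had 3, up to 100.3. The peak of pnt, the ETS activator gene, was 12141 bp upstream of the nearest TSS of its own (99.4, rank 1362), and edl had none.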

How the data were processed

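The files used were peak lists of 2 biological replicates, in the dm6 build per the labels. Per the deposited provenance lists, each replicate's regions were made against 1 shared control, a pooled list came from both, and the IDR list was selected from these. The deposited signal value is the authors' peak strength, of unstated scaling, and the deposited −log10 q-value stands beside it. The IDR cutoff, peak caller and aligner were not given in the sources used here.

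Regions were ranked by signal value, and summits were placed on Ensembl release 115 gene models with Python 3.11.15 and pandas 2.3.3. Every region ended within the chromosome lengths of the Release 6 genome, which supplied the sequences. Transposable elements did not count as genes for the nearest TSS. The code that counts sites, words and windows was checked on simulated sequences and regions with known answers. The 10 members and the pathway lists were chosen with earlier results of these data known. No statistical test compared groups or genes. Values are given for the members, pathway genes with an IDR summit and genes nearer to a member peak. Pathway genes without a summit are only named, and ast, Hakai, SA2 and Ptp61F were named after the positions were seen. The dm3 lists were not used here.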

Additional observations from a re-analysis of the deposited data

How the results depend on the processing

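Settings were changed 1 at a time. Counting gene bodies alone gave 5 members with 8 IDR peaks, against 7.48% of all protein-coding genes, and left out ru, rho and Krn, whose summits are upstream. Pooled regions with a q of 0.01 or less gave 22 regions at 9 members. Using the 2290 strongest regions of 1 replicate, and so leaving out the other, gave 8 members with 13 to 15 regions, against 34.5% of all protein-coding genes without replicate 2 and 32.8% without replicate 3. ru, rho, S, spi, Krn, vn and aos held a region each time, while without replicate 2 Egfr held none and grk held 1. The count of full p53 sites at member peaks, 1 in the report, was 0 when the whole site had to lie within 50 bp of the summit. It was 0 with at most 2 mismatches, 0 for perfect half-sites and 0 in gene bodies alone. Anywhere in the peak it was 2, at rho and vn, and with at most 4 mismatches it was 4. The single site thus depended on the limits chosen, and why the counts moved was not tested. The other 15 values for the members stayed within 1.5 times. Even so, ru had no IDR peak with windows of 2 kb, and Egfr had none among the 1145 strongest. Of the pathway lists, gene bodies alone left 2 of 9 cascade genes, 0 of 3 inhibitors and 0 of 1 other rhomboid gene, and the 1145 strongest IDR peaks left 0 of 3 inhibitors and 2 of 4 nuclear effectors. Over all protein-coding genes, the share with a summit was 7.48% for gene bodies alone and 19.8% for the 1145 strongest IDR peaks. The other settings kept each list within 1.5 times. No paired analysis was possible because there was a single group. Depth could not be read from the lists, so weak regions at stet and grk are not shown to lack binding.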

Other observations

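Widening the windows to 10 kb raised the IDR peaks at the members from 14 to 17, and all 3 added peaks were near spi, which then had 5. The nearest of them, with a signal value of 103.75, lay 138 bp from the TSS of Hakai. The other members kept their counts, and stet and grk still had none. Over all protein-coding genes the share with an IDR summit rose from 33.8% to 46.0%.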
